A study of Mus musculus with 67 samples.

Results

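Calcium store and pump genes are the genes whose products release calcium from the endoplasmic reticulum, refill it, and move calcium out of the cytosol. The 10 genes described here were chosen by name: the store pump gene Atp2a2 and its inhibitor gene Pln, the release channel genes Itpr1, Itpr2, Itpr3 and Ryr2, the refilling genes Stim1 and Orai1, and the plasma membrane pump genes Atp2b1 and Atp2b4. All 10 were found among the 39179 gene rows of the table. RNA was sequenced from single vascular smooth muscle cells cultured from the descending aorta of male C57Bl6 mice aged 3 to 4 months, with 1 library per cell and 22 cells at passage 1 and 45 at passage 2. Freshly isolated cells were grown in DMEM with 10% fetal bovine serum and 1% penicillin and streptomycin, left undisturbed for 5 days, and then trypsinized and subcultured to give passage 2, so both groups are cultured cells with no further treatment. Because no label gives an animal or culture, each passage is treated as 1 sample, and the passages could not be tested against each other. Library names of the passages carry different prefixes, so the effect of passage and that of a library set cannot be told apart.

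In smooth muscle, inositol trisphosphate (IP3) made at the cell surface opens IP3 receptors in the sarcoplasmic or endoplasmic reticulum, and ryanodine receptors add to the release when cytosolic calcium rises. SERCA pumps return calcium to the store, plasma membrane calcium ATPases export it, and STIM proteins sense an emptying store and open ORAI channels at the surface. Contractile arterial smooth muscle uses ryanodine receptors and phospholamban-regulated SERCA2, and cultured smooth muscle cells are known for losing part of this machinery.

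The members fall into families whose coding sequences are close at the sites that do the work, and these stretches are shown because the separate counts of Itpr1, Itpr2 and Itpr3, and of Atp2b1 and Atp2b4, are the base of the results below. The plasma membrane pump genes encode a phosphorylation site that receives phosphate from ATP in each transport cycle. Capitals mark the 5 codons of that site in the GENCODE M21 transcripts on GRCm38, written 5′ to 3′ along the coding strand, at chr10:98999793-98999855 (plus strand, exon 10 of Atp2b1) and chr1:133731789-133731851 (minus strand, exon 10 of Atp2b4).
Atp2b1: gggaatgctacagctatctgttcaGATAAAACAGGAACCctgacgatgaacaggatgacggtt
Atp2b4: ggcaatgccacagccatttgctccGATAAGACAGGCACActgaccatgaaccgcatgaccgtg

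The 4 release channel genes encode a selectivity filter, the narrowest part of the open pore. Capitals mark its 6 codons, in exon 58 of Itpr1 (chr6:108518764-108518829, plus strand), exon 53 of Itpr2 (chr6:146158887-146158952, minus strand), exon 54 of Itpr3 (chr17:27118607-27118672, plus strand) and exon 101 of Ryr2 (chr13:11560603-11560668, minus strand).
Itpr1: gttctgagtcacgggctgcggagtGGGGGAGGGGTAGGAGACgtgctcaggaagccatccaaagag
Itpr2: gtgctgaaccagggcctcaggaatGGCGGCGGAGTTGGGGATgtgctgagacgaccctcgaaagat
Itpr3: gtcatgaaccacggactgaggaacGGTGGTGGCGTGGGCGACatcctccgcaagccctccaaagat
Ryr2: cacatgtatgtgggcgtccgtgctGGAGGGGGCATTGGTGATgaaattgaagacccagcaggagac

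Pln encodes phospholamban, a peptide of 52 residues that holds SERCA2 back until it is phosphorylated at serine 16 or threonine 17. Its whole coding sequence of 159 bases lies in exon 2 (chr10:53343864-53344022, plus strand) and is shown with those 2 codons in capitals because the gene was almost without reads here.
Pln: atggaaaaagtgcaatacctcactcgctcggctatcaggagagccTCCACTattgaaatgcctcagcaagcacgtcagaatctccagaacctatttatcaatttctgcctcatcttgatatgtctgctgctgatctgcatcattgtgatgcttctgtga

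Over these stretches Atp2b1 and Atp2b4 shared 49 of 63 bases (77.8%), and pairs of IP3 receptor genes shared 44 to 47 of 66 bases. The IP3 receptor genes and Ryr2 shared 29 to 33 of 66 bases. Over whole coding sequences the longest run of identical bases between a member and another gene of its family was 44 bases, between Atp2a2 and both Atp2a1 and Atp2a3. It was 26 bases between Atp2b1 and Atp2b4 and 28 to 32 bases between IP3 receptor genes. Whether reads mapping to several genes were kept is not given in the sources used here.

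Each value is a normalized count, that is, a gene's reads divided by the cell's size factor. Cells had 817021 to 1561129 reads at passage 1 and 548419 to 1509589 at passage 2, with a median of 8477.5 and 7257 genes detected. Of 10 smooth muscle markers, 9 were measured, meaning a mean of 10 or more and reads in 25% or more of cells in either passage. All 9 had the higher mean at passage 2, Acta2 reached 10 in 20 of 22 and 45 of 45 cells, and desmin (Des) was not measured. Myh11 reached 10 in 2 of 22 and 18 of 45 cells, and Cnn1 in 2 of 22 and 8 of 45. Of 8 fibroblast markers 7 were measured, 5 with the higher mean at passage 2 and 2 with the lower. Their list had a median summed level of 1064 at passage 1 and 1345 at passage 2, against 1545 and 7339 for the smooth muscle list. At least 3 of 10 endothelial markers reached 10 in 5 passage 1 cells and 2 passage 2 cells, called endothelial marker cells below. Mki67 or Top2a, markers of dividing cells, reached 10 in 16 of 22 and 10 of 45 cells. This cut is a rough one when set against the summed level of 20 G2 and M phase genes. That sum ran from 118.1 to 850.6 in the passage 1 cells without either marker at 10. Passage 2 cells 30 and 32 had a marker at 10 but a sum below the passage 2 median of 35.2. The other passage 2 cells with a marker at 10 lay above that median. Passage 1 cell 21 and passage 2 cells 13 and 15 stood apart with 4017, 4163 and 4754 genes, and no member reached 10 in any of them.

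**Figure D1:**
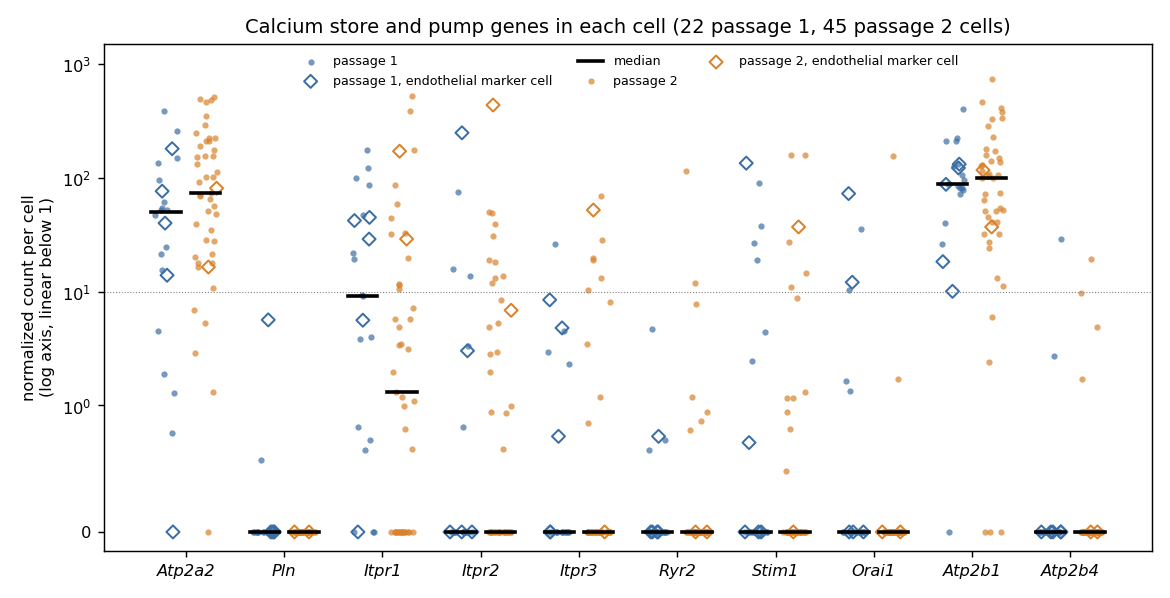
Normalized count of each member in each cell (vertical log axis, linear below 1) at passage 1 (blue, 22 cells) and passage 2 (orange, 45 cells), with medians as black lines, a dotted line at 10, and diamonds for endothelial marker cells. Atp2a2 and Atp2b1 reached 10 in 77.3% to 95.5% of cells, with medians between 49.7 and 98.98, while 7 other members had a median of 0 in both passages.

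Of the 10 members, 5 were measured: Atp2a2, Itpr1, Itpr2, Stim1 and Atp2b1. None of the 5 was 2-fold or more lower at passage 2, where 19.4% of 8682 measured genes were, and none was 2-fold or more higher, where 14.4% of them were. Of the 5, 3 had the higher mean at passage 2 and 2 the lower, with a median log2 ratio of 0.14 against -0.11 over all measured genes. Itpr2, at -0.04, changed sign with the scaling, to 0.13 with reads per total and 0.04 with TMM scaling. The log2 ratio here is the passage 2 value of log2(mean + 1) less the passage 1 value, a scale on which low genes appear to differ less than they do. Without the 7 endothelial marker cells 4 members were measured, the median was 0.02 and the counts past 2-fold were again 0. Of the 8580 genes measured without those cells, 19.5% were 2-fold or more lower and 16.8% higher. Single cells decided the side of 2-fold for 3 members: Atp2a2 reached it without passage 1 cell 6, Itpr2 without passage 1 cell 12 or passage 2 cell 8, and Stim1 without passage 2 cell 1 or cell 24.

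A read alone can say little in these libraries. Among 24 lymphocyte, erythroid and striated muscle genes, which such cells should lack, up to 31.8% of passage 1 cells (for Lck) and 33.3% of passage 2 cells (for Cd3d) had a read. A value of at least 10 was reached in up to 9.09% (Mb) and 8.89% (Lck). The median over the 24 genes was 0% by both measures in both passages, so these shares are those of the highest gene. The highest Lck values, 39.3 in passage 1 cell 13 and 145 in passage 2 cell 8, lay in endothelial marker cells. By the share of cells with a value of at least 10, Atp2a2, Itpr1, Itpr2, Stim1 and Atp2b1 lay above this highest background share in both passages. Orai1 lay above it at passage 1 and Itpr3 at passage 2. For some of these the margin was a few cells. At passage 1, Itpr2 and Orai1 each reached 10 in 4 of 22 cells, against 2 for Mb. At passage 2, Stim1 did so in 6 of 45 cells and Itpr3 in 7, against 4 for Lck. Pln, Ryr2 and Atp2b4 lay at or below it in both passages, so their shares of cells are not set apart from background. A share of cells does not judge single high values. Ryr2 was at 114 in passage 2 cell 3 and Atp2b4 at 29.03 in passage 1 cell 1.

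**Figure D2:**
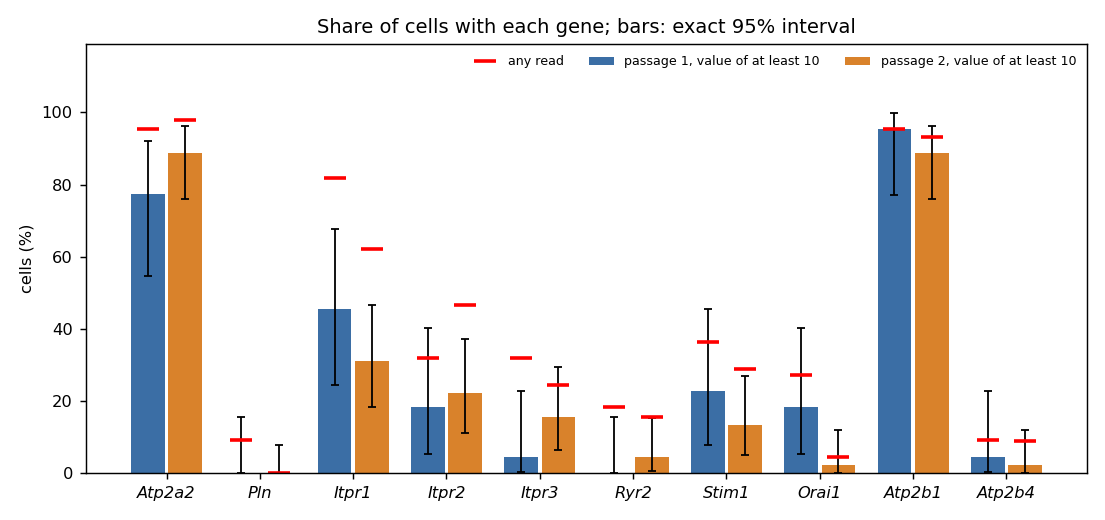
Share of cells (vertical axis, percent) with each member at a value of at least 10 (bars, with exact Clopper-Pearson 95% intervals) and with any read (red lines), at passage 1 (blue, 22 cells) and passage 2 (orange, 45 cells). Atp2a2 and Atp2b1 reached 10 in 77.3% to 95.5% of cells, and no other member did so in more than 45.5%.

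Atp2a2 (ENSMUSG00000029467, chr5:122453513-122502225, minus strand) encodes SERCA2, the pump that refills the store. At passage 1 it ran from 0 through a median of 49.7 to 388 in cell 6, with a mean of 76.3 ± 96.6 (SD over 22 cells). At passage 2 it ran from 0 through 73.8 to 510 in cell 37, with a mean of 130 ± 141 (SD over 45 cells). The ranges overlapped almost wholly, and the 4 highest passage 2 cells, between 461 and 510, lay above the highest passage 1 cell. A value of at least 100 was seen in 5 of 22 cells (22.7%, exact 95% interval 7.82% to 45.4%) and in 20 of 45 (44.4%, 29.6% to 60.0%). The log2 ratio of means was 0.76, the passage 2 cell held the higher value in 62.8% of 990 cell pairs, and the ratio of summed reads per library depth was 1.70 (exact 95% interval 1.62 to 1.79, counting error only).

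The size of the Atp2a2 difference changed with the choice of cells. Without passage 1 cell 6 it was 1.07, and without the cells with Mki67 or Top2a at 10 it was 1.23, on 6 and 35 cells. In those cells Atp2a2 averaged 62.6 ± 77.8 and 148 ± 152, and in the cells with either marker 81.4 ± 105 and 67.8 ± 68.9. The summed level of 20 G2 and M phase genes had a median of 1463 at passage 1 and 35.2 at passage 2, and its part in the difference was not tested. Without the endothelial marker cells the log2 ratio was 0.73.

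The other SERCA genes were close to absent. Atp2a3, which encodes SERCA3, had reads at passage 1 in 3 cells only, all endothelial marker cells, at 31.6, 60.5 and 132.5, and in 1 passage 2 cell at 0.94. Atp2a1, the skeletal muscle SERCA gene, did not exceed 5.49 in any cell. Per kb of exon, Atp2a2 was the higher of Atp2a2 and Atp2a3 in 20 of 21 passage 1 cells with a read of either, and in 44 of 44 at passage 2.

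Pln (ENSMUSG00000038583, chr10:53337667-53345987, plus strand) had 9 reads in 26400274 at passage 1 and 0 in 41340350 at passage 2. The 9 reads lay in 2 cells, cell 14 with a value of 5.65, which is an endothelial marker cell, and cell 22 with 0.57. The other passage 1 cells and all 45 passage 2 cells were at 0, which allows a share of passage 2 cells with a read of up to 6.67% (3 of 45) or, by the exact 95% interval, 7.87%. With a floor of 3 reads put in place of the 0 at passage 2, its reads relative to depth were 4.70-fold higher at passage 1. That value rests on cell 14 and is not a lower bound. The exact 95% interval of the ratio of summed reads, passage 2 over passage 1, reached up to 0.32 (counting error only). Sln, which encodes the related SERCA inhibitor sarcolipin, had no read in any cell. Of the 10 striated muscle markers 0 were measured, with a summed level of 0 to 61.1 at passage 1 and 0 to 59.1 at passage 2. Myh6, Myl7, Ckm and Myh1 were at 0 in every cell. The others, Myh7, Tnni3, Tnnt2, Nppa, Tnnt3 and Mb, had reads in some cells, up to 60.4 for Tnnt2 in passage 1 cell 10. The annotation places 1644 bases of an opposite-strand transcript (Gm47644) and 141 bases of Cep85l over Pln exons, and since the strand of counting is not given in the sources used here, even these few reads are uncertain in origin.

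Itpr1 (ENSMUSG00000030102, chr6:108213096-108551109, plus strand) encodes the type 1 IP3 receptor, the main type in arterial smooth muscle. At passage 1 it ran from 0 through a median of 9.24 to 174 in cell 5, with a mean of 32.8 ± 47.3. At passage 2 it ran from 0 through 1.32 to 520 in cell 12, with a mean of 36.2 ± 99.4. The means were close while the typical cell had less: 10 of 22 cells (45.5%, exact 95% interval 24.4% to 67.8%) and 14 of 45 (31.1%, 18.2% to 46.7%) had a value of at least 10. The log2 ratio of means was 0.14, the median over cells gave -2.14 and the mean of log2 values -1.03, with medians over all measured genes of -0.60 and -0.62 for the latter 2 measures. The passage 2 cell was the higher in 34.2% of cell pairs and the lower in 58.9%. Without passage 2 cell 12 the log2 ratio was -0.37, and without passage 1 cell 5 it was 0.46.

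Itpr2 (ENSMUSG00000030287, chr6:146108299-146502223, minus strand) encodes the type 2 receptor, the most sensitive of the 3 to IP3. It had a median of 0 in both passages, a highest value of 248.7 at passage 1 and 436 at passage 2, and means of 16.4 ± 54.4 and 15.96 ± 65.3. Each mean rested on 1 cell: passage 1 cell 12 held 68.9% of its passage sum and passage 2 cell 8 held 60.8%, and both are endothelial marker cells. Both also had Mki67 or Top2a at 10. Itpr2 reached 10 in only 1 of the 5 passage 1 and 1 of the 2 passage 2 endothelial marker cells. Without the endothelial marker cells the means were 6.42 ± 18.5 (17 cells) and 6.40 ± 12.9 (43 cells). In 4 of 22 cells (18.2%) and 10 of 45 (22.2%) it reached 10. The log2 ratio was -0.04 over all cells, 1.42 without passage 1 cell 12 and -1.23 without passage 2 cell 8. The summed level of the 10 endothelial markers, 7 of which were measured, spanned 0 to 7413 over passage 1 cells and 0 to 7142 over passage 2 cells.

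Itpr3 (ENSMUSG00000042644, chr17:27057304-27122223, plus strand) encodes the type 3 receptor, best known from epithelial and proliferating cells. It reached at most 26.04 at passage 1, in cell 2, and 68.8 at passage 2, in cell 23, with medians of 0. Its means were 2.27 ± 5.75 and 5.00 ± 13.7, below the minimum of 10, so it does not count among the measured genes. A value of at least 10 was seen in 1 of 22 cells (4.55%, exact 95% interval 0.12% to 22.8%) and 7 of 45 (15.6%, 6.49% to 29.5%), intervals that overlap. An opposite-strand transcript, Itpr3os, covers 233 bases of its exons.

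Within the IP3 receptor family, levels per kb of exon placed Itpr1 highest in 15 of 21 passage 1 cells with a read of any of the 3 (71.4%, exact 95% interval 47.8% to 88.7%). At passage 2 it was highest in 16 of 35 cells (45.7%, 28.8% to 63.4%). Itpr2 was highest in 5 of 21 and 13 of 35 cells, and Itpr3 in 1 of 21 and 6 of 35. The family had no read in 1 passage 1 cell and in 10 of 45 passage 2 cells. A single gene held all of the family's reads in 12 passage 1 cells and 16 passage 2 cells, and Itpr1 was that gene in 10 of each. Without the endothelial marker cells Itpr1 was highest in 12 of 16 and 15 of 33 cells with a read. Values of at least 10 for Itpr1 and Itpr2 together were seen in 2 of 22 and 3 of 45 cells.

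Ryr2 (ENSMUSG00000021313, chr13:11553102-12106945, minus strand) encodes the ryanodine receptor of heart and smooth muscle. It had 11 reads at passage 1, spread over 4 cells with a highest value of 4.66, and 180 reads at passage 2 in 7 cells. Passage 2 cell 3, at 114, held 82.95% of the passage sum, cell 38 had 11.9 and every other cell lay under 10. The ratio of summed reads per library depth was 10.45 (exact 95% interval 5.70 to 21.3, counting error only), and the log2 ratio of means was 1.63 over all cells and 0.23 without passage 2 cell 3. Passage 2 cell 3 also had an Atp2b1 value of 468, exceeded in cell 7 alone. Ryr1 had no read in any cell, and Ryr3 had values in 2 passage 1 cells only, up to 96.2.

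Counting Itpr1, Itpr2, Itpr3 and Ryr2 together, no release channel gene reached 10 in 10 of 22 passage 1 cells and in 20 of 45 passage 2 cells. Of the remaining cells, 9 and 17 had 1 such gene and 3 and 8 had 2.

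**Figure D3:**
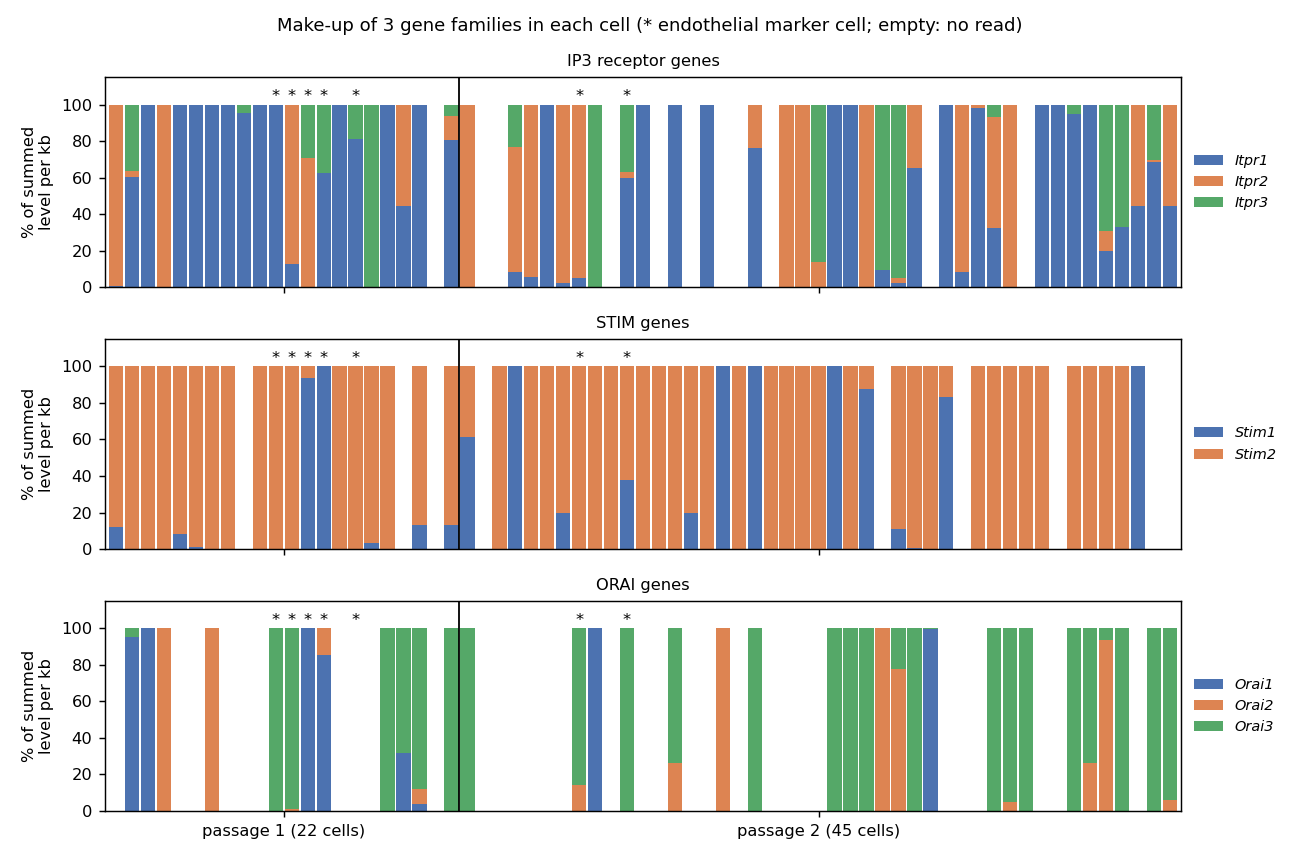
Make-up of the IP3 receptor, STIM and ORAI genes in each cell (1 bar per cell, passage 1 left of the line and passage 2 right of it), as the percent of the family's summed level per kb of exon; stars mark endothelial marker cells and an empty place means no read. Itpr1 fills 15 of 21 passage 1 bars to the largest share and 16 of 35 passage 2 bars, while Stim2 does so in 17 of 19 and 31 of 39.

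Stim1 (ENSMUSG00000030987, chr7:102267806-102437319, plus strand) encodes the sensor that reports an emptied store. Its median was 0 in both passages, its highest values were 135 in passage 1 cell 13, an endothelial marker cell, and 159 in passage 2 cell 24, and its means were 14.4 ± 33.96 and 9.37 ± 33.3. It reached 10 in 5 of 22 cells (22.7%) and 6 of 45 (13.3%). The log2 ratio was -0.57 over all cells, -0.23 without the endothelial marker cells, 0.11 without passage 1 cell 13 and -1.14 without passage 2 cell 24, so neither direction nor size was stable to the loss of 1 cell. All 5 passage 1 cells at 10 or above had Mki67 or Top2a at 10, and none of the 6 passage 2 cells did. Over all cells, 16 of 22 at passage 1 and 10 of 45 at passage 2 had either marker at 10. With so few cells, these counts do not show a link of Stim1 with dividing cells. Without the cells carrying either marker the log2 ratio was 2.52, from 1.26 ± 1.82 in 6 cells to 12 ± 37.5 in 35.

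Its paralog Stim2, which senses smaller falls in store calcium, stood higher per kb. The mean of Stim2 was 147 ± 250 in passage 1 cells and 47.3 ± 113 in passage 2 cells, a log2 ratio of -1.61, with 15 of 22 and 17 of 45 cells at 10 or above. In the cells with neither Mki67 nor Top2a at 10 (6 and 35 cells) the means were 33.6 ± 33.9 and 26.3 ± 48.0 and the log2 ratio was -0.34, short of 2-fold. Per kb of exon, Stim2 exceeded Stim1 in 17 of 19 passage 1 cells with a read of either, the other 2 being endothelial marker cells, and in 31 of 39 passage 2 cells. Stim1 was the higher in 8 passage 2 cells.

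Orai1 (ENSMUSG00000049686, chr5:123015074-123030456, plus strand) encodes the channel pore that STIM1 opens. At passage 1 it had reads in 6 cells, up to 72.8 in cell 14, an endothelial marker cell, and at passage 2 in 2 cells, 155 in cell 30 and 1.73 in cell 9. A value of at least 10 was seen in 4 of 22 cells (18.2%, exact 95% interval 5.19% to 40.3%) and in 1 of 45 (2.22%, 0.06% to 11.8%). The means were 6.07 ± 16.9 and 3.49 ± 23.1, and passage 2 cell 30 held 98.9% of its passage sum. The log2 ratio was -0.66 over all cells, -2.77 without passage 2 cell 30 and 0.20 without passage 1 cell 14. Of the 4 passage 1 cells, 2 are endothelial marker cells, and without these cells the ratio was 0.27. Without the cells with Mki67 or Top2a at 10 it was -3.89, since both passage 2 cells with a read were among those. The passage 1 mean was then 13.9 ± 29.2 (SD over 6 cells). The value of -3.89 thus rests on leaving out passage 2 cell 30, whose summed level of G2 and M phase genes was below the passage 2 median. It does not show a link of Orai1 with dividing cells.

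Among ORAI genes, Orai3 was highest per kb in 6 of 12 passage 1 cells with any ORAI read and in 17 of 23 passage 2 cells (73.9%, exact 95% interval 51.6% to 89.8%). Orai1 was highest in 4 of 12 and 2 of 23. These counts rest on any read. Among the 9 passage 1 and 9 passage 2 cells with an ORAI gene at 10 or above, Orai3 was highest in 4 and 7, and Orai1 in 4 and 1. No ORAI gene had a read in 10 of 22 and 22 of 45 cells. Stim1 and Orai1, the sensor and the pore of 1 pathway, reached 10 together in 1 passage 1 cell and in no passage 2 cell.

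Atp2b1 (ENSMUSG00000019943, chr10:98914406-99026143, plus strand) encodes PMCA1, the widely expressed calcium exporter of the plasma membrane. At passage 1 it ran from 0 through a median of 88.1 to 403 in cell 5, with a mean of 111 ± 89.7. At passage 2 it ran from 0 through 98.98 to 736 in cell 7, with a mean of 130 ± 148. The values overlapped throughout, and the passage 2 cell was the higher in 48.7% of cell pairs. A value of at least 10 was seen in 21 of 22 cells (95.5%, exact 95% interval 77.2% to 99.9%) and 40 of 45 (88.9%, 75.95% to 96.3%). The log2 ratio was 0.23 and lay between 0.07 and 0.42 whichever cell was left out, while the mean of log2 values gave -0.22. Its coefficient of variation over cells was 0.81 at passage 1, the lowest of the 10 members, and 1.14 at passage 2, where Atp2a2 alone was lower at 1.09.

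Atp2b4 (ENSMUSG00000026463, chr1:133699457-133801041, minus strand) encodes PMCA4, the other exporter known from vascular smooth muscle. It had 43 reads at passage 1, in 2 cells with values of 29.03 and 2.73, and 39 reads at passage 2, in 4 cells with at most 19.4. Cell 1 held 91.4% of the passage 1 sum. Per kb of exon, Atp2b1 was the higher of the 2 in 21 of 21 and 42 of 42 cells with a read of either.

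Set side by side per kb of exon, the mean levels at passage 1 were 12.6 for Atp2a2, 7.27 for Atp2b1, 2.64 for Orai1, 1.79 for Itpr1, 1.39 for Stim1 and 1.11 for Itpr2. At passage 2 they were 21.4 for Atp2a2, 8.54 for Atp2b1, 1.98 for Itpr1, 1.52 for Orai1, 1.08 for Itpr2 and 0.90 for Stim1. The other 4 members lay at or below 0.55 in both passages. The SD over cells exceeded the mean for every member with a read except Atp2b1 at passage 1. The order of the neighbours from Orai1 to Itpr2 is a description, and whether they differ was not tested. Atp2a2 was above Atp2b1 in 9 of 22 cells at passage 1 and in 34 of 45 at passage 2. Both reached 10 in 17 of 22 and 37 of 45 cells.

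A cell had a median of 3 members at 10 or above in both passages, and at most 5. The 5 cells with 5 such members combined different genes. Passage 1 cell 1 had Itpr2, Stim1 and Atp2b4 beside the 2 pumps, cell 2 had Itpr1, Itpr3 and Orai1, and cell 22 had Itpr1, Itpr2 and Stim1. Passage 2 cell 11, an endothelial marker cell, had Itpr1, Itpr3 and Stim1, and cell 23 had Itpr2, Itpr3 and Atp2b4. Spearman correlations between members across cells spanned -0.36 to 0.51 in passage 1 cells (45 pairs, median 0.12, 22 cells) and -0.27 to 0.38 in passage 2 cells (36 pairs, median 0.02, 45 cells). The cells of a passage share a library set and differ in depth. Itpr1 and Atp2b1 had a correlation of 0.51 at passage 1 and -0.06 at passage 2. At passage 2 Itpr3 had a correlation of 0.52 with the number of genes detected and -0.48 with the summed level of smooth muscle markers, against -0.01 and -0.22 at passage 1.

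Only Atp2a2, Itpr1 and Atp2b1 had reads in 50% or more of cells in both passages, and for these the most similar genes were sought among 8680 measured genes by the mean of the 2 within-passage Spearman correlations. For Atp2a2 they were Ugcg (0.51), Ddrgk1 (0.51) and Meaf6 (0.50). For Itpr1 they were Cd2ap (0.52), Arid2 (0.48) and Eif2b5 (0.47), and for Atp2b1 Stk38l (0.50), Prrc2c (0.50) and Pikfyve (0.49). The 99th percentile of the same measure over those genes was 0.35, 0.33 and 0.35. The named genes were picked as the highest on it, so they lie above it by choice and no link is drawn. The mean can hide unequal passages. At passage 1 and passage 2 the correlations were 0.65 and 0.37 for Ugcg, 0.76 and 0.28 for Cd2ap, and 0.47 and 0.53 for Stk38l.

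The genes that work around the members were read from 6 lists. Of their 78 genes 54 were measured, of which 12 were 2-fold or more higher at passage 2, 3 were 2-fold or more lower and 39 neither, with a median log2 ratio of 0.03. The shares over all measured genes, 14.4% higher and 19.4% lower, are given above.

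Among 18 partners of the release channels, 11 were measured, of which 4 were 2-fold or more higher and none was 2-fold or more lower. The 4 were Prkg1 (log2 ratio 2.10), which encodes the cGMP-dependent kinase that restrains IP3-induced release, Mrvi1 (1.55), which encodes IRAG, the kinase's target on the type 1 IP3 receptor, Tmem38b (1.91), which encodes a counter-ion channel of the store, and Homer1 (1.30), a scaffold of IP3 receptors. The mean of Prkg1 was 12.6 ± 37.97 and 57.4 ± 120 in the 2 passages, with 4 of 22 and 19 of 45 cells at 10 or above, and that of Mrvi1 was 30.8 ± 112.1 and 92.1 ± 174. Passage 1 cell 6 held most of the Mrvi1 sum, and without it the passage 1 mean was 7.19 and the log2 ratio 3.51. Prkg1 was at 3.31 without passage 1 cell 20, and Homer1 at 2.64 without passage 1 cell 2 and 0.70, short of 2-fold, without passage 2 cell 12. Without the cells with Mki67 or Top2a at 10 the ratios were 5.31 for Prkg1, 2.47 for Mrvi1 and 4.53 for Homer1. For Tmem38b, 67.4% of cell pairs had the greater value at passage 2. Fkbp1a, which encodes a binding protein of the release channels and had the highest mean of the list, had a log2 ratio of -0.23, and Erp44, an inhibitor of the type 1 receptor on the store side, had the lowest at -0.74. The median of the 11 was -0.17. The 9 measured smooth muscle markers were higher at passage 2 too, with a median log2 ratio of 2.21, and their part in these differences was not tested.

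Of 16 genes of IP3 production and removal 12 were measured, 5 of them 2-fold or more higher and 1 lower, with a median of 0.16. Inpp5a, which encodes a phosphatase that removes IP3, had the highest log2 ratio (1.69) with means of 5.12 ± 13.9 and 18.7 ± 54.4, and the phospholipase C gene Plcd3 the lowest (-2.50) with means of 14.8 ± 44.4 and 1.78 ± 7.17. Both rested in part on 1 cell: Inpp5a was at 1.06 without passage 2 cell 43, and Plcd3 was at -1.58 and no longer measured, with a passage 1 mean of 7.34, without passage 1 cell 19. Gna11, a G protein gene that couples receptors to phospholipase C, had the highest mean of the list and a log2 ratio of -0.63, and its median over cells was 201 at passage 1 and 20.9 at passage 2.

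Of 11 further store refilling genes 6 were measured, 2 of them 2-fold or more higher and 2 lower, with a median of 0.22. Saraf, which encodes a brake on STIM1, averaged 44.6 ± 45.1 and 168 ± 181 (log2 ratio 1.89) and 73.03% of cell pairs had the greater value at passage 2. Tmco1, which encodes a channel that lets calcium out of an overfull store, had the highest mean of the list and averaged 248.6 ± 136 and 116 ± 103 (-1.10), and Stim2 had the lowest log2 ratio at -1.61, which was -0.34 without the cells with Mki67 or Top2a at 10. Of these 2 lower genes, only Tmco1 (-1.21) was past 2-fold without those cells, and only Stim2 (-1.91) without endothelial marker cells, where Tmco1 stood at -0.99. Orai3, the second gene past 2-fold in the higher direction at 1.11, was at 0.53 and no longer measured without passage 2 cell 45.

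Of 14 genes for calcium-binding proteins of the store 12 were measured, none was past 2-fold in either direction and the median was -0.05. The range ran from Hsp90b1 (-0.94) to Rcn3 (0.91), and the chaperone gene Canx, with the highest mean, was at 0.48. Without the cells with Mki67 or Top2a at 10, Hsp90b1 was at -1.29 and Rcn3 at 0.26, and 2 genes of the list, Sdf4 and Nucb1, were 2-fold or more higher and 1, Hsp90b1, lower. Without endothelial marker cells Rcn3 was at 1.11. Casq2, the calsequestrin gene of heart and smooth muscle, had a read in 4 passage 2 cells, up to 729, and in 1 passage 1 cell, and did not pass as measured.

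Of 10 export genes 5 were measured, 1 of them 2-fold or more higher, with a median of 0.16. Bsg, which encodes a chaperone subunit of plasma membrane calcium pumps, had a log2 ratio of 1.15 with means of 90.7 ± 57.3 and 202 ± 165, and of 0.89, short of 2-fold, without the cells with Mki67 or Top2a at 10. Slc8a1, the sodium-calcium exchanger gene, reached 10 in 1 of 22 and 3 of 45 cells. Of 9 genes of mitochondrial uptake 8 were measured and none was past 2-fold, with a range from -0.67 (Mcub) to 0.83 (Letm1) around a median of 0.02, and Vdac1, with the highest mean, at -0.17. Without the cells with Mki67 or Top2a at 10, Vdac1 stood at -1.02 and Mcub, no longer measured, at 0.36.

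**Figure D4:**
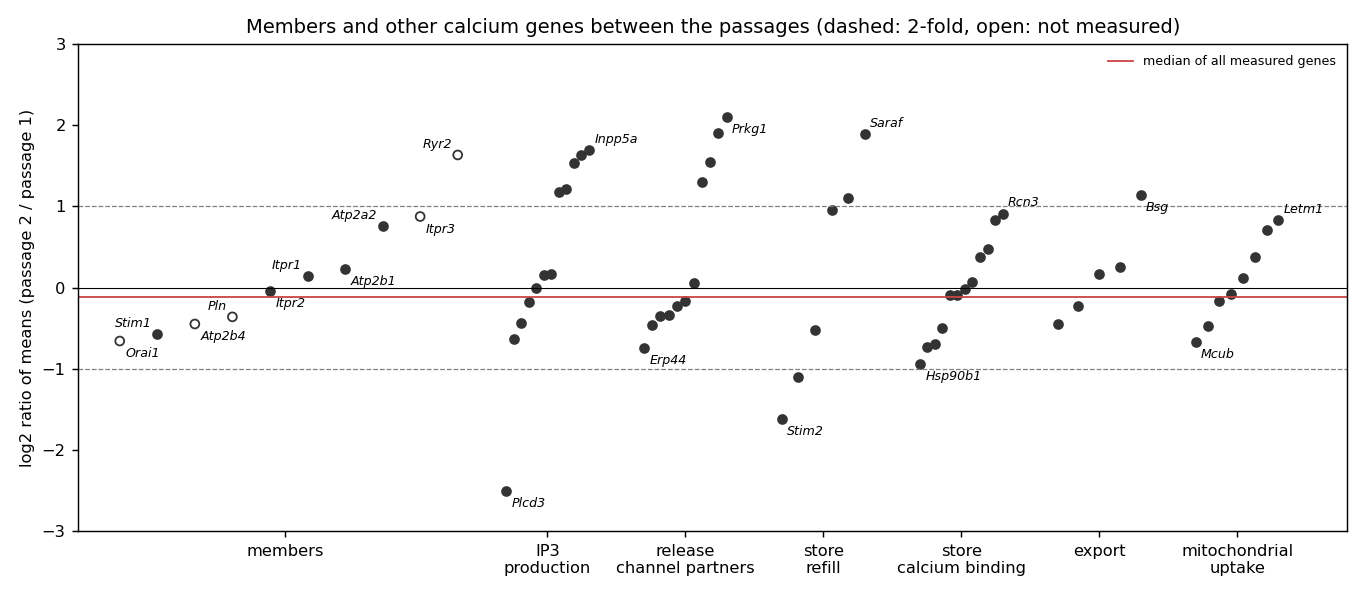
Log2 ratio of means (passage 2 over passage 1, vertical axis) of the 10 members and of the measured genes of 6 calcium lists (1 point per gene, open circles for members that were not measured), with dashed lines at 2-fold and the median of all measured genes in red. The 5 measured members lie between -0.57 (Stim1) and 0.76 (Atp2a2), while list genes run from -2.50 (Plcd3) to 2.10 (Prkg1).

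The stretch of 250 bases before the RefSeq transcription start (GRCm38.p6) was available for 8 of the 10 members. Counted on it, CpG dinucleotides numbered 43 and 41 for the 2 starts of Atp2b1, 31 for Stim1, 30 for Orai1, 25 for Itpr3, 22 for Itpr2 and 14 for Ryr2, but 2 for Atp2b4 and 1 for Pln, against a median of 6 over 32851 such stretches. The window of Atp2b4 and both windows of Atp2b1 belong to starts inside the GENCODE gene. Exons covered 236 bases of the Atp2b1 window with 43 CpG dinucleotides. The windows of Stim1 and Pln reach a short way into the GENCODE gene. No member's stretch held a CArG box, searched on both strands and held by 1.47% of all stretches. TATAAA, searched on both strands, was held by that of Pln alone among the members and by 12.4% of all.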

How the data were processed

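Single-cell libraries were made on a C1 system with Nextera XT reagents, per the labels' protocols, and the submitters' processing notes name BWA, SAMtools, HTSeq, DESeq and GRCm38 without versions. The deposited signal values are read counts per gene scaled by the authors with a DESeq size factor for each cell. Whole reads came from each column's values over its smallest one above 0, and 100% of the 509576 ratios fell within 0.001 of an integer. Strand and multi-mapping handling are not given in the sources used here, and no column was left unused.

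The 10 members and the 6 lists around them were chosen with earlier results of these data known. Symbols came from GENCODE M21 (37607 of 39179 rows matched). A gene was measured with a mean of 10 or more and reads in 25% or more of cells in either passage, which left 8682 genes. The log2 ratio compared means over cells with a pseudocount of 1, and a difference was called at 2-fold. Named genes were all members, the genes with the highest mean and the highest and lowest log2 ratio of each list, and the 3 most similar genes of each member with reads in 50% or more of cells in both passages. Under this rule 1 gene of the export list is named, and 1 item is not reported here. Other genes named (such as Mrvi1, Tmem38b, Homer1, Casq2, Ryr3, Sln, Atp2a3, Atp2a1, Slc8a1 and the Orai paralogs) were chosen after their values were seen or as paralogs of members. With 1 sample per passage, no test was run. Shares carry Clopper-Pearson 95% intervals (exact), and summed-read ratios carry exact binomial intervals. Both cover counting error only, and neither covers differences between animals or cultures. The share intervals treat the cells of a passage as independent, although no label gives their animal or culture. The summed-read intervals treat reads as independent, although reads without molecular identifiers are not independent molecules. Lengths per kb are union exon lengths. Scaling with edgeR 4.0.16 (TMM) in R 4.3.3 was an alternative; other values were computed in Python 3.11.15 with numpy 2.4.6, pandas 2.3.3 and scipy 1.17.1. The log2 ratio script was checked on simulated counts. No doublet caller was run on 67 cells.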

Additional observations from a re-analysis of the deposited data

How the results depend on the processing

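The count of members 2-fold or more higher at passage 2 was 0 and became 1 without a filter (Ryr2), 1 with means of log2 values (Atp2a2) and 2 without the cells with Mki67 or Top2a at 10 (Atp2a2 and Stim1). The count 2-fold or more lower was 0 and became 1 for cell medians and 1 for means of log2 values (Itpr1 in both), 1 without the cells with Mki67 or Top2a at 10 (Orai1) and 1 without the 25% of cells with the fewest genes (Stim1). Both counts ran from 0 to 1 when 1 cell was left out. The share of all genes 2-fold or more lower or higher was 39.8% and 7.40% for cell medians, 35.1% and 6.66% for means of log2 values, and 22.1% and 24.2% without the cells with Mki67 or Top2a at 10.

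The median log2 ratio of the measured members, 0.14, was 0.50 with a filter of mean 50 and 50% of cells (2 members), 0.27 with TMM scaling, 0.00 with medians over cells, -0.22 with means of log2 values, 0.0196 without endothelial marker cells, 0.34 without the cells with Mki67 or Top2a at 10, and 0.30 without the 25% of cells with the fewest genes. It ran from -0.0163 (without passage 2 cell 33) to 0.42 (without passage 1 cell 5). The median over all measured genes was -0.11, and 0.003 with TMM scaling, -0.60 for cell medians and -0.62 for means of log2 values, so the last 3 move the baseline too. Leaving out the 3 cells with fewer than 5000 genes, chosen after seeing the data, left both counts at 0 and the median at 0.14. Of the 6 lists together, 12 genes were 2-fold or more higher and 3 lower, against 14 and 2 without endothelial marker cells and 12 and 4 without the cells with Mki67 or Top2a at 10; with 1 cell left out the counts ran from 11 to 14 and from 2 to 5, all added after seeing the data. Low values limit Pln, Ryr2, Atp2b4, Orai1 and Itpr3, whose ratios rest on 1 to a few cells; the cause of the other shifts was not tested. No paired analysis was possible because replicate numbers only name the cells and the result comes from no test.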
